A study of Mus musculus with 7 samples.

Results

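Membrane peptidases of the proximal tubule brush border were followed across kidneys of cisplatin-treated mice. The 9 genes, Mme, Enpep, Anpep, Dpep1, Dpp4, Ggt1, Mep1a, Mep1b and Xpnpep2, were taken by name from a table of 54532 genes, and each matched 1 row. All libraries came from C57BL/6J mice, male according to the series' design and 6 to 8 weeks old, that received cisplatin at 20 mg/kg through a tail vein. Cisplatin is a platinum anticancer drug that damages the proximal tubule. In 4 libraries the mice had been given saline, and in 3 they had been given DXZ at 40 mg/kg, first 30 min ahead of cisplatin and again at 24 h intervals for 3 days. The labels use DXZ without spelling it out. Every animal was exposed to cisplatin, so the values cannot be set against a healthy kidney. The labels do not state that each library is a separate animal, and p-values describe the spread between libraries, which may be technical.

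The brush border is the carpet of microvilli on the luminal face of proximal tubule cells. Its peptidases stand with their catalytic domains in the tubule fluid, where they cut filtered peptides into amino acids and small peptides that neighbouring transporters carry into the cell. They also inactivate peptide hormones, among them angiotensins, and take apart filtered glutathione, since gamma-glutamyltransferase removes the glutamyl group and a dipeptidase splits the remaining cysteinylglycine. Several are shared with other cells: neprilysin, encoded by Mme, and aminopeptidase A, encoded by Enpep, are also found on podocytes, and Dpp4 is the lymphocyte antigen CD26.

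Kidney and proximal tubule origin was visible in every library. All 28 genes of a list of other proximal tubule genes and all 10 podocyte genes were abundant enough to be tested. The 28 summed to 29370 to 54958 CPM (read counts scaled to a common library size) in saline and 20161 to 25373 in DXZ. The 10 podocyte genes summed to 486 to 678 CPM in saline and 381 to 547 in DXZ. Total counts ran from 16058157 to 18133736 per library. DXZ 1 stood apart from the other DXZ libraries in non-tubule transcripts. There 11 fibroblast and mural cell genes summed to 801 CPM, against 227 and 212 in DXZ 2 and 3 and 329 to 647 in saline. Of 10 T cell genes only Lck and Cd8a were abundant enough to test, the sum of these 2 lay between 1.18 and 3.49 CPM in all libraries, and none of the list was at 0 throughout. The sum of 8 macrophage genes was highest in DXZ 1 at 377 CPM, against 189 and 137 in DXZ 2 and 3 and 135 to 233 in saline. Of the 8, 2 passed higher in DXZ by edgeR, Cd68 and Cd14, where 498 of all 15351 tested genes did. The median log2 fold change of the 8 was only 0.11, and 3 were negative: Csf1r, Adgre1 and C1qb. Of 10 genes known to mark injured tubules, 3 rose, namely Krt8, Krt18 and Plaur, at a list median of 1.33 on the log2 scale. Only 1 of the 10 had a negative fold change. The list sum overlapped between the groups, but most of it came from Spp1. That gene was at 6465 to 20087 CPM in saline and 16663 to 27621 CPM in DXZ. Whether these other cells or tubule injury contributed to the peptidase differences was not tested.

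Because the members were lower together in DXZ, the 250 bases before the annotated start are shown for 4 of the 6 with a single start in the RefSeq promoter table of GRCm38.p6: Enpep and Xpnpep2, which passed the test described below, and Mep1a and Dpep1, which did not. Capitals mark the letters GATAA, or TTATC where the match is on the other strand.
Enpep (chr3:129332750-129332999, minus strand): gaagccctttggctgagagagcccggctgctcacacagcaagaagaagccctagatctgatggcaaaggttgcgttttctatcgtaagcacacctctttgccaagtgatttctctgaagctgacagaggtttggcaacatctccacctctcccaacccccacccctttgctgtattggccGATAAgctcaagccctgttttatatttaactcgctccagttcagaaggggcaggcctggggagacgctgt
Xpnpep2 (chrX:48108475-48108724, plus strand): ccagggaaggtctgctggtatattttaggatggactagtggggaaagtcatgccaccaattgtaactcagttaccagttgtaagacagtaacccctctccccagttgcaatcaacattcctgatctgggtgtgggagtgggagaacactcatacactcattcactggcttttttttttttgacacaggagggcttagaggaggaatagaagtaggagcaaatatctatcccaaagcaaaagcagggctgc
Mep1a (chr17:43502774-43503023, minus strand): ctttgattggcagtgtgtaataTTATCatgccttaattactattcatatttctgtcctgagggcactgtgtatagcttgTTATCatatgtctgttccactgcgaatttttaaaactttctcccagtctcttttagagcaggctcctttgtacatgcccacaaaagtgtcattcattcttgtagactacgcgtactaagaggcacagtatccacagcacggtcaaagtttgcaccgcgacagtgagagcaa
Dpep1 (chr8:123185985-123186234, plus strand): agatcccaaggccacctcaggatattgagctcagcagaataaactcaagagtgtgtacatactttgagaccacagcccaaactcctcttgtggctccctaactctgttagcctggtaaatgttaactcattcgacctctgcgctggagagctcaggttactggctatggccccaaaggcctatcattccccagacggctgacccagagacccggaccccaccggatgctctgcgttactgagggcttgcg
The table held 13 start windows for 8 of the members. In windows from 250 before to 50 after the start and read on both strands, GATAA was found in 4 of these 13, 1 window each for Dpp4, Enpep, Ggt1 and Mep1a, and in 25.4% of all 32851 windows of the table. The letters GTTAAT, part of the site known for HNF1 factors, were in 0 of the 13 and in 7.10% of all windows, and CAAAGTCCA, a form of the HNF4 site, in 0 and 0.475%. Its shorter core AAAGTCC was in 1 window, of Ggt1, and in 4.21% of all. Xpnpep2 had 0 CG dinucleotides in the stretch shown, Enpep and Mep1a 6 each and Dpep1 7, against a median of 6.0 over all windows. Other members held more or fewer in the 250 bases before a start: 4 for Dpp4, 23 for Anpep, 2 to 27 for Mme and 2 to 8 for Ggt1. A match is a description of letters only.

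The members lie on 8 chromosomes, and their coordinates are those of the deposited table, which match GRCm38 for all but the start of Mep1b. The 3 aminopeptidase genes are Anpep (chromosome 7, 79821803 to 79861059, minus strand), Enpep (chromosome 3, 129269175 to 129332720, minus strand) and Xpnpep2 (chromosome X, 48108725 to 48136981, plus strand). The endopeptidase genes are Mme (chromosome 3, 63241537 to 63386030, plus strand), Mep1a (chromosome 17, 43474324 to 43502812, minus strand) and Mep1b (chromosome 18, 21072344 to 21100199, plus strand). Dpp4 lies on chromosome 2 (62330073 to 62412231, minus strand), Ggt1 on chromosome 10 (75561604 to 75586200, plus strand) and Dpep1 on chromosome 8 (123186242 to 123201812, plus strand). Features annotated across 5 of the members held few reads: the 8 counts of Gm13561, antisense to Dpp4, were the most, against 10461 counts of Dpp4 in all libraries.

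Per gene length, the members covered a wide range of levels in the same tissue. Mep1a, the alpha subunit of the zinc endopeptidase meprin, had the highest median in saline at 497 FPKM (fragments per kilobase of gene, scaled to library depth), and Ggt1, the enzyme that removes the glutamyl group from glutathione, followed at 226 FPKM. Both stood above every other member in all 7 libraries, and the libraries of these neighbours in the order did not overlap within either group. Then came Anpep at 42.6, Enpep at 41.0, Mep1b at 30.4 and Dpep1 at 28.7 FPKM, whose neighbouring ranges overlapped in saline. Dpp4 at 16, Mme at 12.4 and Xpnpep2 at 1.89 FPKM were the lowest, each separated from its neighbours in all 4 saline libraries.

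The order among the middle members differed in DXZ. The medians there were 259 FPKM for Mep1a, 114 for Ggt1, 37.9 for Anpep, 20.2 for Enpep, 11.4 for Dpp4, 7.47 for Dpep1, 7.12 for Mme, 4.19 for Mep1b and 0.747 for Xpnpep2. Anpep and Enpep, which overlapped in saline, were apart in DXZ, while Dpp4, Dpep1 and Mme each overlapped the next in the order. Differences in order between the groups were not tested.

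**Figure D1:**
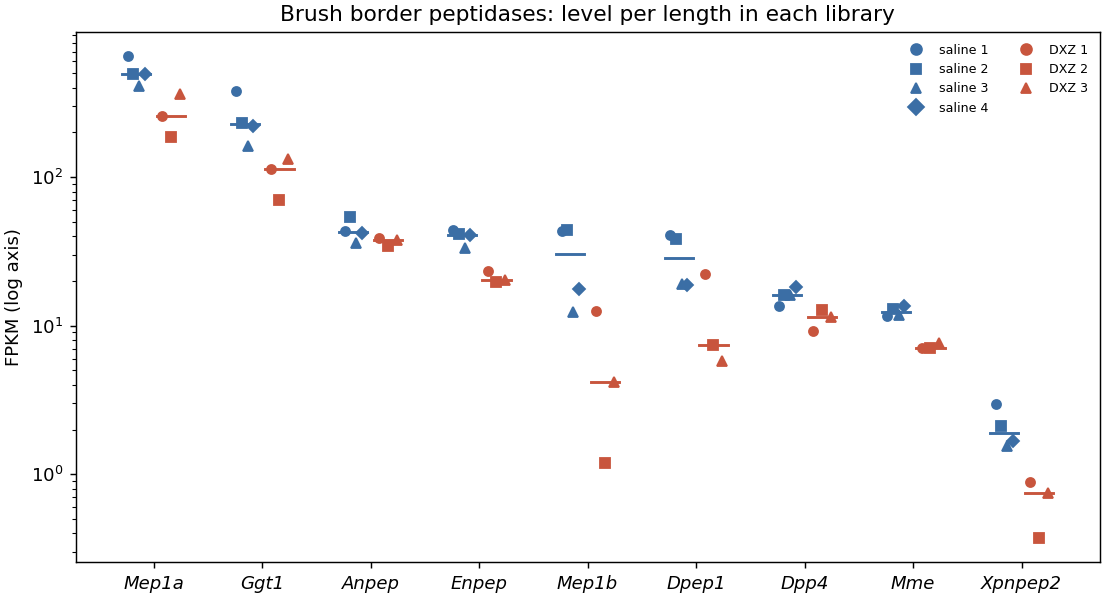
FPKM on a log axis for each of the 9 peptidases, 1 point per library, with saline in blue, DXZ in red, the marker shape giving the replicate number and short lines the group medians. Mep1a and Ggt1 stand above the other members in all 7 libraries, and the DXZ median lies below the saline median for each gene.

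Each of the 9 peptidase genes had a lower fitted level in DXZ than in saline, and 3 fell past the test: Mme, Enpep and Xpnpep2. Their mean levels in DXZ were 58.6%, 53.3% and 32.5% of those in saline. The median log2 fold change of the members was -0.92, against 0.01 over all 15351 tested genes, and summed member CPM was 3397 ± 738 (SD, n = 4) in saline and 1759.8 ± 431 (SD, n = 3) in DXZ. Mep1a, which did not pass, made up 49.4% to 58.5% of this sum in each library. In bulk tissue, fewer proximal tubule cells and less RNA per cell cannot be told apart. By edgeR's quasi-likelihood test, 853 genes (5.56%) were called at an adjusted p below 0.05. Of all tested genes 355 (2.31%) were called lower, against 3 of the 9 members. The members were chosen with earlier results of these data known, so setting them beside shares of all genes is a description and no test. Of 28 other proximal tubule genes, 12 were called lower, at a list median of -1.13. The groups did not overlap, with DXZ lower, for 6 of 9 members and for 11.3% of all tested genes (24.1% in either direction), and 8 of 9 members had an unadjusted p below 0.05 with a negative fold change, against 11.4% of all.

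These calls rested on the full set of libraries. Without saline 4 or without DXZ 2, edgeR called 0 members, and only 4 and 1 of all genes, while 8 and 7 members had an unadjusted p below 0.05 with a negative fold change, against 9.15% and 9.12% of all genes in those fits. Without DXZ 1 it called 5 members, all lower, against 5.01% of all genes called lower. DESeq2 called 7 members lower, with a background of 5.86%. All 9 members were lower in each of the 19 alternative fits.

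**Figure D2:**
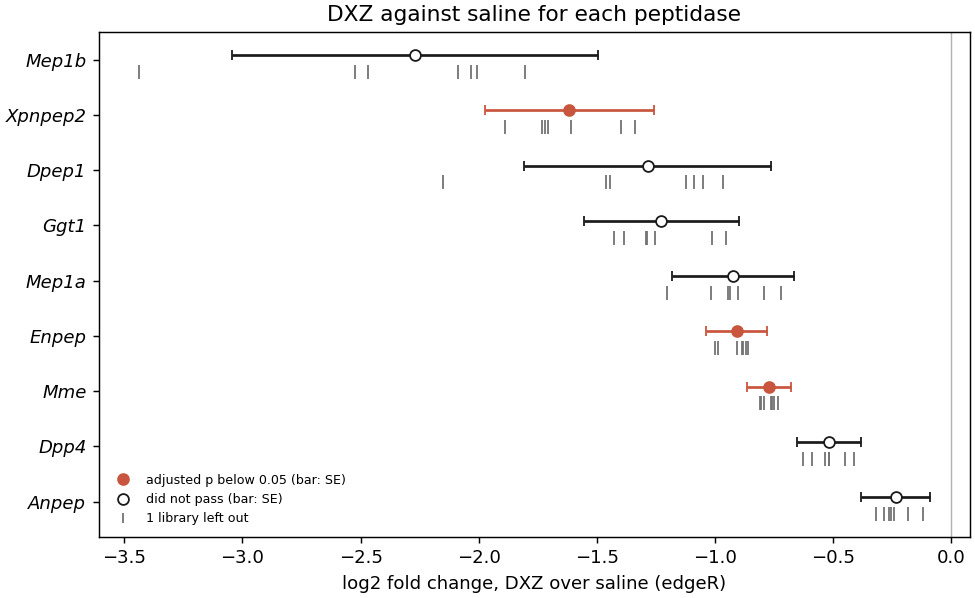
The log2 fold change of DXZ over saline with its SE for each peptidase, filled red where edgeR's adjusted p was below 0.05, and grey ticks for the value with 1 library left out. Points run from -2.27 for Mep1b to -0.24 for Anpep, and each tick lies below 0, with the ticks of Mep1b and Dpep1 spread the most.

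The aminopeptidases take single residues from the amino end of peptides, and they differed in the size of their change. Enpep encodes aminopeptidase A, which removes acidic residues and turns angiotensin II into angiotensin III. It stood at 208, 197, 157 and 190.3 CPM in saline 1 to 4. DXZ 1 to 3 held 113, 92.5 and 95.4 CPM. All DXZ libraries lay below all saline libraries, with little spread inside either group. The log2 fold change was -0.91 (SE 0.13; adjusted p = 0.0204 by edgeR), and the value stayed between -1.0 and -0.86 when single libraries were left out. The call was lost without saline 4 (edgeR adjusted p = 0.0747), DXZ 2 (0.0703) or DXZ 3 (0.0535).

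Xpnpep2 encodes the membrane-bound aminopeptidase P, which cuts before a proline in the second position and degrades bradykinin. It was the scarcest member, with 125 to 255 counts per saline library and 30 to 79 per DXZ library. Its levels were 14.6, 10.3, 7.64 and 8.11 CPM in saline and 4.45, 1.81 and 3.66 CPM in DXZ. The groups did not overlap, and the lowest saline library was saline 3. Xpnpep2 fell with a log2 change of -1.62 (SE 0.36; adjusted p = 0.0442 by edgeR), and it passed in only 1 of the 7 fits with a library left out, the one without DXZ 1.

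Anpep, encoding aminopeptidase N or CD13, which removes neutral residues, differed least. Saline libraries held 180.4, 225, 149.8 and 173 CPM, and DXZ libraries 165, 141 and 157 CPM. Saline 3 lay among the DXZ libraries, so the groups overlapped. Its log2 change of -0.24 (SE 0.15; adjusted p = 0.352 by edgeR) did not pass, nor did it in any of the 19 alternatives. The value was -0.12 without saline 2, the highest library.

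Among the endopeptidases, which cut inside a peptide chain, Mme showed the tightest values of all members. Mme encodes neprilysin, which degrades natriuretic peptides, bradykinin and angiotensins. It was at 134, 151, 137 and 156 CPM in saline and at 84.0, 81.9 and 88.4 CPM in DXZ. The highest saline library was 1.16 times the lowest, the highest DXZ library 1.08 times the lowest, and a clear gap separated the groups. Mme fell with a log2 change of -0.77 (SE 0.09; adjusted p = 0.0204 by edgeR). The summed level of 10 podocyte genes, cells that also carry neprilysin, was 486 to 678 CPM in saline and 381 to 547 CPM in DXZ. Podxl held a large part of it, at 226 to 325 and 170 to 256 CPM. Of the 10, 0 passed, but all 10 had a negative log2 fold change, at a median of -0.41. Nphs1, Ptpro, Clic3 and Thsd7a had an unadjusted p below 0.05 by edgeR, and 11.4% of all tested genes did with a negative fold change. A part of podocytes in the values of Mme and Enpep was not tested. Mme kept its call in 5 of 7 fits with a library left out, losing it without saline 4 (edgeR adjusted p = 0.0747) or DXZ 2 (0.0637).

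The meprin subunits differed from each other in spread. Mep1a was at 2256, 1727, 1423 and 1717 CPM in saline and at 915, 642 and 1261 CPM in DXZ. The groups did not overlap, but the spread inside each was wide, and the log2 change of -0.92 (SE 0.26; adjusted p = 0.0742 by edgeR) did not pass. Mep1b, the beta subunit that anchors meprin in the membrane, was at 99.2, 101, 28.3 and 40.0 CPM in saline and at 29.3, 2.72 and 9.62 CPM in DXZ. Its DXZ 1 value lay above that of saline 3, and the highest DXZ library was 10.8 times the lowest. The log2 fold change of -2.27 was the most negative of the 9 but had an SE of 0.77 (edgeR adjusted p = 0.117), and it was -3.44 and passed without DXZ 1 (edgeR adjusted p = 0.0369).

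Dpp4, encoding dipeptidyl peptidase 4, removes dipeptides ending in proline or alanine and inactivates incretin hormones. Saline libraries held 86.2, 102, 102 and 116 CPM and DXZ libraries 59.9, 80.3 and 72.2 CPM. The groups did not overlap, though DXZ 2 came close to saline 1. The log2 fold change was -0.52 (SE 0.14) and narrowly missed the threshold (edgeR adjusted p = 0.0640). It passed by DESeq2 (adjusted p = 0.0218) and by limma-voom (adjusted p = 0.0476).

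The glutathione-degrading enzymes had larger but more variable differences. Ggt1 was at 1298, 799.8, 552 and 748 CPM in saline and at 397, 239.8 and 453 CPM in DXZ. The groups did not overlap, and saline 1 stood far above the other saline libraries. Its log2 fold change was -1.23 (SE 0.33; adjusted p = 0.0652 by edgeR), which passed by DESeq2 (adjusted p = 0.00140). Dpep1, the renal dipeptidase that splits cysteinylglycine and leukotriene D4, was at 102, 96.3, 47.5 and 46.4 CPM in saline and at 57.0, 18.5 and 14.4 CPM in DXZ. DXZ 1 exceeded saline 3 and saline 4, so the groups overlapped, and the log2 change of -1.28 (SE 0.52; adjusted p = 0.172 by edgeR) did not pass. Without DXZ 1 it was -2.15 and passed (edgeR adjusted p = 0.0276).

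**Figure D3:**
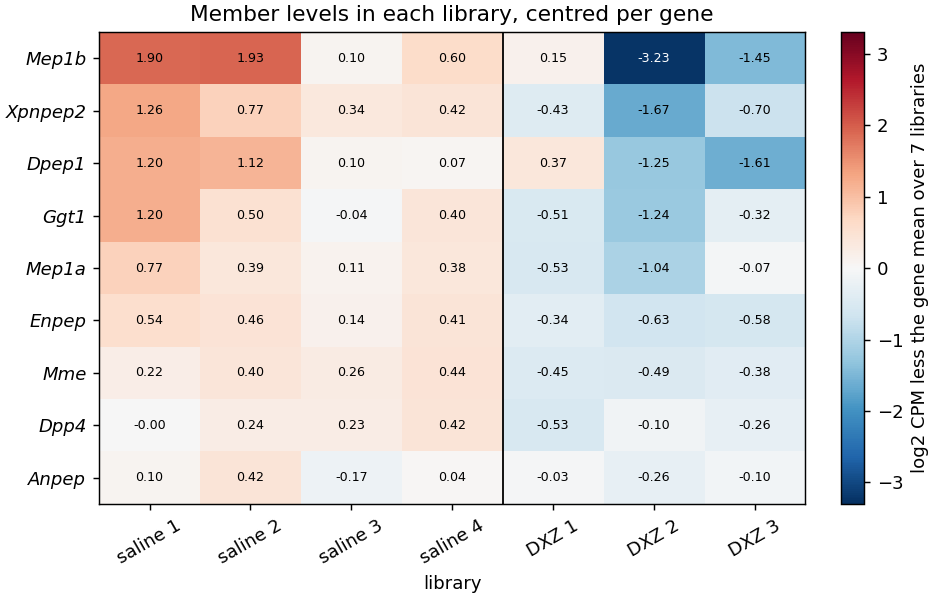
Heat map of log2 CPM less the gene's mean over the 7 libraries, with genes ordered by fold change and a line between saline and DXZ libraries. Mep1b spans 1.93 in saline 2 to -3.23 in DXZ 2, while Mme stays between -0.49 and 0.44 with a step between the groups.

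Libraries were not ordered alike for all members. Saline 1 and saline 2 held the highest 2 levels for Enpep, Anpep, Dpep1, Ggt1, Mep1a, Mep1b and Xpnpep2, but saline 4 was highest for Mme and Dpp4. DXZ 2 was the lowest library for 7 members, while DXZ 3 was lowest for Dpep1 and DXZ 1 for Dpp4. For Dpep1 and Mep1b, saline 1 and 2 were more than 2-fold above saline 3 and 4. The summed CPM of 7 genes known for the last proximal tubule segment, S3, came to 2031, 1214, 666 and 757 over the saline libraries in order, and to 837, 372 and 623 over DXZ 1 to 3. For 6 genes of the first segment, S1, it was 2013, 1207, 1113 and 1282 in saline and 695, 531 and 732 in DXZ. DXZ 1 exceeded saline 3 and 4 in the S3 sum, as it did for Dpep1, and lay below all saline libraries in the S1 sum. Most of the S3 sum in DXZ 1, saline 3 and saline 4 was Atp11a, at 528, 477 and 496 CPM. Of the other S3 genes, Slc22a7, Cyp7b1 and Acsm3 were also higher in DXZ 1 than in saline 3 and 4. Slc7a13, Slc7a12 and Slc22a19 were lower in DXZ 1 than in all saline libraries. A part of segment composition in the values of Dpep1 and Mep1b was not tested.

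Relative to 28 other proximal tubule genes measured in the same libraries, some members were less reduced. The list median was -1.13 on the log2 scale, 12 of its genes fell and 0 rose, and the list was known from earlier results to be lower in DXZ. The log2 CPM of Anpep less the mean of the list was -1.60 ± 0.44 (SD, n = 4) in saline and -0.38 ± 0.17 (SD, n = 3) in DXZ, a difference of 1.21 with no overlap. The same difference was 0.53 for Enpep, 0.48 for Mep1a and 0.67 for Mme, also with no overlap, and 0.92 for Dpp4 and 0.23 for Ggt1 with overlap. It was -0.02 for Dpep1, -0.19 for Xpnpep2 and -1.21 for Mep1b. The Mep1b value rested on single libraries, at -0.51 without DXZ 2 and -1.92 without DXZ 1. An exact two-sided permutation test on the absolute difference gave p = 0.0286 for Anpep, Enpep and Mep1a, the smallest that 35 arrangements allow, and the adjusted p over 9 members was 0.0857 for each. It was 0.129 to 0.943 for the other members, so none of the 9 passed. With 35 arrangements and 9 tests, a member could pass only if several others also reached the smallest p. Not passing therefore decides little. A small p would decide little as well, since the list was known to be lower in DXZ when it was chosen.

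**Figure D4:**
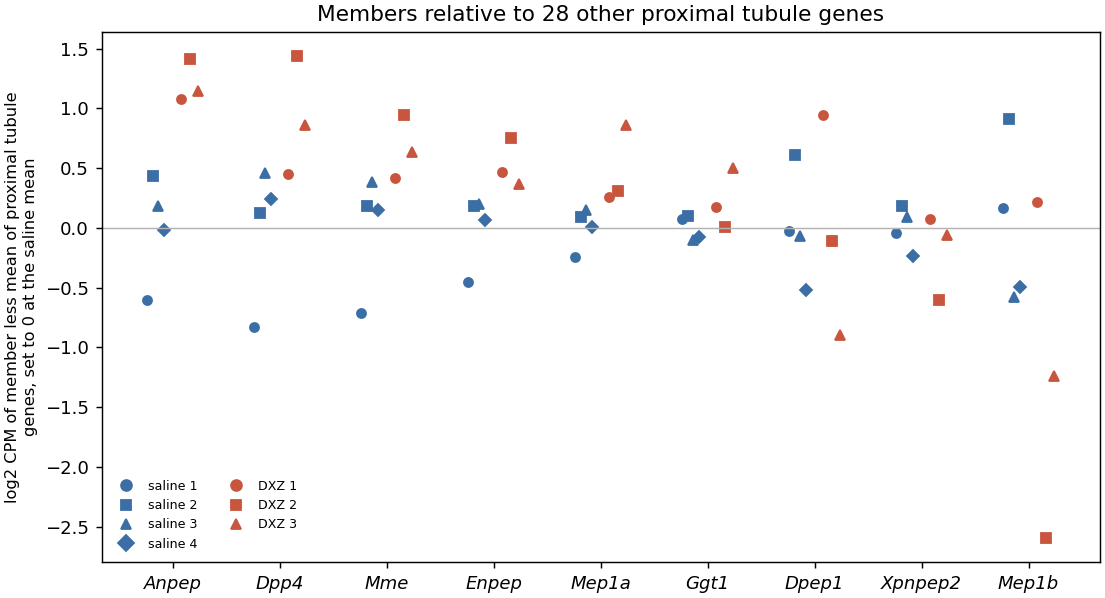
Log2 CPM of each member less the mean log2 CPM of 28 proximal tubule genes in the same library, with the saline mean of each member set to 0, 1 point per library. The DXZ points of Anpep lie above all of its saline points, and those of Mep1b scatter from above 0 to below all saline points.

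Measured against the other members, the values of 2 members did not overlap between the groups, though neither passed a test. Anpep less the mean of the other 8 members was 0.36 ± 0.23 (SD, n = 4) in saline and 1.39 ± 0.35 (SD, n = 3) in DXZ. The difference was 1.04, and 0.45 where the median of the others took the place of their mean. Xpnpep2 less the other 8 was -4.34 ± 0.21 and -4.89 ± 0.29, a difference of -0.54, which changed sign on log2(FPKM + 1). For both, the exact permutation test gave p = 0.0286 and an adjusted p of 0.129 over 9 members, so neither passed. The smallest p that the arrangements allow limits this test in the same way, and it could not call a member standing alone.

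Genes that work beside the peptidases were described from 6 lists, in which 68 different genes were tested and 12 were called by edgeR, 11 lower and 1 higher. As with the members, edgeR called 0 of them without saline 4 or without DXZ 2. With median-of-ratios scaling it called 11, all lower. Of 12 other brush border hydrolases and associated proteins tested, 3 fell, at a median log2 fold change of -0.58. Cltrn, or collectrin, which is no enzyme but brings amino acid transporters to the membrane, fell from 1036 ± 494 to 241 ± 47.4 CPM (-2.10 on the log2 scale, adjusted p = 0.0256 by edgeR). Treh, which splits trehalose, fell from 109.9 ± 12.0 to 49.3 ± 19.8 CPM, and Enpp3, a nucleotide pyrophosphatase, from 67.3 ± 7.12 to 37.2 ± 2.66 CPM (edgeR adjusted p = 0.0425 and 0.0204).

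Of 9 tested genes of an uptake list, 3 fell and 0 rose, and the list median was -0.88 on the log2 scale. The list holds 1 glucose carrier, Slc5a2, and over its 8 tested carriers of peptides and amino acids the median was -0.82, with the same counts. Slc3a1 and Slc7a9, the subunits of the cystine transporter, had log2 fold changes of -1.21 and -1.24, and Slc1a1, a glutamate transporter, of -0.61 (edgeR adjusted p = 0.0446, 0.0418 and 0.0300). Slc15a2, which takes up the di- and tripeptides that the peptidases release and was named after its values were seen, was at 63.5 ± 15.1 and 41.8 ± 11.5 CPM (-0.60 on the log2 scale, adjusted p = 0.153 by edgeR) and did not pass.

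The scaffold of the brush border differed less than its peptidases by the median only. Of 16 tested scaffold genes, 4 fell and 1 rose, at a median log2 fold change of -0.26, against -0.92 for the peptidases. Pdzk1, named after its values were seen, was at -1.06 and did not pass (edgeR adjusted p = 0.108). Cdhr5, a cadherin that links microvilli, and its partner Anks4b had log2 fold changes of -0.59 and -0.47, Tmigd1, an adhesion protein, of -0.54, and Slc9a3, the sodium-proton exchanger, of -0.63 (edgeR adjusted p between 0.0379 and 0.0486). Ezr, encoding ezrin, the linker of membrane proteins to actin, rose from 519.6 ± 25 to 717 ± 45.2 CPM (edgeR adjusted p = 0.0486), a call that median-of-ratios scaling did not keep. Vil1, encoding the microvillus core protein villin and likewise named after its values were seen, was at 210.1 ± 13.5 and 189 ± 25.3 CPM (edgeR adjusted p = 0.454).

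Of the angiotensin system, whose peptides Enpep, Mme and Anpep degrade, 0 of 7 tested genes passed, at a median log2 fold change of -0.25. Agtr1a, the main angiotensin II receptor, was at 27.7 ± 7.44 and 13.8 ± 5.06 CPM (-1.0 on the log2 scale, adjusted p = 0.0860 by edgeR). At an unadjusted p below 0.05, 1 of the 7 was lower, namely Agtr1a. Of 13 genes of glutathione synthesis and breakdown, 1 fell, at a median of 0.03. It was Chac2, a cytosolic enzyme that degrades glutathione (25.4 ± 4.08 and 16.2 ± 0.510 CPM, edgeR adjusted p = 0.0452). Of 17 tested genes listed as relatives of the members, not all of the same peptidase family, 0 passed by edgeR, at a median of -0.12. At an unadjusted p below 0.05 there were 2: Ggt6 at -0.67 and Lta4h at -0.18 (edgeR adjusted p = 0.0623 and 0.194).

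The members' typical course over the libraries, taken as the median of their centred log2 CPM, was matched most closely by Fggy, Abhd14b, Mccc1, Bphl and Myo15b among 9391 other genes whose average reached 10 CPM. Their root mean square distance from it over 7 libraries was 0.08 for Fggy and Abhd14b, 0.09 for Mccc1 and 0.10 for Bphl and Myo15b, in log2 units. Of the members, Mep1a was closest to this course at 0.13 and Mep1b farthest at 1.18. Fggy, which encodes a carbohydrate kinase, was at 83.3 ± 13.9 and 42.0 ± 8.46 CPM. All 5 matched genes had log2 fold changes between -1.13 and -0.96. They were picked for likeness to a course that is lower in DXZ, so these values follow from the choice.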

How the data were processed

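Mouse kidney RNA was measured by RNA-seq in 7 libraries. The deposited count table holds raw whole-number read counts per gene, and deposited FPKM equal each count over the length of its gene, times 1 constant per library, as checked on the values. Per the submitters' processing notes, HISAT2, StringTie and mm9 were used; what each did, and which program counted reads and on which strand, is not given in the sources used here. Table coordinates matched GENCODE M21 of GRCm38 for 53499 of 54409 shared genes (98.3%), including 8 of the 9 members; Mep1b had another start.

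Counts were tested in R 4.3.3 with edgeR 4.0.16 (filterByExpr, TMM, quasi-likelihood F test, Benjamini-Hochberg over all 15351 tested genes, threshold 0.05). An SE is the fold change over the square root of F. Log2 CPM used a prior count of 2. Alternatives were median-of-ratios scaling, 2 other filters, robust dispersion, DESeq2 1.42.0, limma 3.58.1 (voom with quality weights, or log2 FPKM plus 1 or 0.1), a minimum fold of 1.5, libraries left out, and a replicate block. Companion genes were named if called, otherwise up to 2 of lowest p per list, and the 5 genes nearest in pattern, leaving out predicted genes. The edgeR fit and the permutation test were tested on simulated data. Chi-square per degree of freedom between libraries of a group was 14.0 to 90.4, above sampling noise, and each library was counted as 1 sample. Members and lists were chosen with earlier results of these data known. One companion gene that this rule names is not reported here. Protein sequences were not used here.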

Additional observations from a re-analysis of the deposited data

How the results depend on the processing

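All 9 members were lower in DXZ in each of the 19 alternatives, and no alternative moved the median of all genes beyond -0.01 to 0.02. Calls were less stable. The count of called genes was 2027 by DESeq2, 3 against a fold of 1.5, 145 on unfiltered log2(FPKM + 1), 1332 without both saline 1 and DXZ 1, and 1 to 1574 with 1 library left out, against 853. Members called were 7 by DESeq2, 0 against a fold of 1.5, 6 without saline 1 and DXZ 1, and 0 to 5 with 1 library left out. Companion genes called were 21, 0 and 1 by DESeq2, against a fold of 1.5 and on unfiltered log2(FPKM + 1), where their median was -0.14, and 0 to 17 with 1 library left out.

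Ggt1 passed with no filter (-1.24). DESeq2 also called Dpep1 (-1.30), Dpp4 (-0.52), Ggt1 (-1.23) and Mep1a (-0.93), and voom called Dpp4 (-0.52) but not Xpnpep2 (-1.55). Against a fold of 1.5 Mme (-0.77), Enpep (-0.91) and Xpnpep2 (-1.62) did not pass, nor did Xpnpep2 on unfiltered log2(FPKM + 1) (-0.87). Without saline 1 and DXZ 1, Dpep1 (-1.95), Dpp4 (-0.48) and Mep1b (-3.19) passed. With single libraries left out, log2 fold changes ran from -0.81 to -0.73 for Mme, -1.0 to -0.86 for Enpep, -1.89 to -1.34 for Xpnpep2, -2.15 to -0.97 for Dpep1 and -3.44 to -1.80 for Mep1b. At an unadjusted p below 0.05, the test against a fold of 1.5 gave 1006 genes and 6 members. The cause of these changes was not tested.

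With the replicate number as a block over the 3 numbers both groups share, 115 genes, 0 members and 2 companion genes were called, and Mme (-0.73), Enpep (-0.90) and Xpnpep2 (-1.74) did not pass by edgeR; at an unadjusted p below 0.05 it was 3220 genes and 8 members. Same-numbered libraries share only a number: their deviations correlated at 0.26, -0.09 and 0.23, and saline 2 correlated best with DXZ 1.

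Relative to the proximal tubule list, Dpep1 changed sign on log2(FPKM + 1) (0.0130) and with the list median (0.0131), Xpnpep2 on log2(FPKM + 1) (0.51), and with single libraries left out they ran from -0.50 to 0.41 and from -0.33 to 0.00985. Relative to the other 8 members, Xpnpep2 changed sign on log2(FPKM + 1) (0.14), and Mme (-0.0757), Enpep (-0.23) and Mep1a (-0.28) with the median of the others, which also lowered Anpep from 1.04 to 0.45. With single libraries left out Dpep1 ran from -0.80 to 0.11, Mep1b from -2.39 to -0.97, Ggt1 from -0.25 to 0.0706 and Mep1a from -0.0306 to 0.43. Leaving out a library leaves too few arrangements for these tests to pass.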

Other observations

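The proportion of the meprin subunits varied between libraries. Mep1a exceeded Mep1b per gene length by 15.1, 11.3, 33.3 and 28.4 times in saline 1 to 4, and by 20.7, 156 and 86.7 times in DXZ 1 to 3. DXZ 2 and DXZ 3 lay above all saline libraries, while DXZ 1 lay among them, so the groups overlapped. The ratio of DXZ 2 rests on 45 counts of Mep1b. These values were looked at after the levels were known and were not tested.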
